A study of Homo sapiens with 9 samples.

Results

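The transcription factor AP-1 and a set of immediate early genes were followed through exposure of PANC-1 cells to the small molecule BRD7552. The members were 10 genes of the 19775 named on the array: JUN, JUNB and JUND, FOS, FOSB, FOSL1 and FOSL2, and EGR1, IER2 and DUSP1. They were taken by name, by every probe set annotated to one of these symbols alone, which gave 24 of 54675 probe sets. PANC-1 is an established cell line, derived from a human carcinoma of the pancreas. The study measured RNA on 9 Affymetrix arrays in 3 groups of 3. One group had received BRD7552 at 5 uM for 72 h and one the same dose for 6 h, and the third received the solvent DMSO. The labels give the DMSO arrays no exposure time, so exposure and time in culture cannot be told apart. The labels do not describe replicates as separate cultures, so the p-values reflect no more than how these arrays scattered, and the number of arrays limits the precision.

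AP-1 is a dimer of leucine zipper proteins. JUN proteins pair with each other, with FOS proteins or with relatives of the ATF and MAF families, and FOS proteins need a partner to bind DNA. Immediate early genes are transcribed within minutes of a growth factor or stress signal, without new protein synthesis, through MAP kinases, SRF with its ETS partners, and factors already bound at their promoters. EGR1 is a zinc finger factor of this class, IER2 is a small nuclear protein, and DUSP1 is a phosphatase that switches MAP kinases off.

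The promoters of several members hold letters that match motifs known for inputs to this family. These stretches are shown as background, and whether a match acts in these cells was not tested. Bases are RefSeq's for GRCh38.p14, 5′ to 3′ on the gene's own strand, and capitals mark the motif found. Windows from 250 bases before to 50 after the start were searched on both strands for TGACTCA (the AP-1 site), TGACATCA (the variant through which JUN is known to act on its own gene), TGACGTCA (the cyclic AMP response element) and the CArG box bound by SRF. The table held a window for 9 of the 10 members, FOSL1 being the other. JUN has TGACATCA at -67 to -60 in chr1:58784077-58784144 on the minus strand, JUND has TGACGTCA at -200 to -193 in chr19:18281785-18281852 on the minus strand, and DUSP1 has TGACGTCA at -125 to -118 in chr5:172771283-172771350 on the minus strand. FOSL2 has TGACTCA at 5 to 11 in chr2:28392852-28392878 on the plus strand, and EGR1 has CArG boxes at -105 to -96 and -83 to -74 in chr5:138465344-138465435 on the plus strand.
JUN: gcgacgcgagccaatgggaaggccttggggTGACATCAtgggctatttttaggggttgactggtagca
JUND: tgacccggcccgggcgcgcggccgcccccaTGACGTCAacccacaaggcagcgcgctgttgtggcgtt
FOSL2: gccattgtagTGACTCAtctcgggcag
EGR1: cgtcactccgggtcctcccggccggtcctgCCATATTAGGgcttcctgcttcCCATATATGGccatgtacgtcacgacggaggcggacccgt
DUSP1: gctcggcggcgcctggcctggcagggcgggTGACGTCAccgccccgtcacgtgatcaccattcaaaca

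Of 35116 promoter windows of the same length, 4.95% hold TGACTCA, 2.61% hold TGACATCA, 1.85% hold TGACGTCA and 1.29% hold a CArG box. A match describes the letters and is neither a measured binding site nor a cause of the values that follow. The windows of JUNB, FOS, FOSB and IER2 hold none of these exact motifs.

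Signals are the deposited linear values, and differences were tested on the log2 scale with limma over all tested probe sets, with a call at a Benjamini-Hochberg adjusted p below 0.05. A probe set was tested when its mean log2 signal reached that of the median probe set, a signal of 17.8. The filter kept 18 of the 24 member probe sets, which stand for 8 of the 10 genes. FOS and FOSB had no probe set above it, so the results are those of the 18 and not of all 24. The 6 left out are 3 of JUND's 4, 1 of EGR1's 3 and the single ones of FOS and FOSB. Levels are compared between arrays for the same probe set only, since different probe sets bind differently.

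At 72 h, 5 of the 8 tested genes fell against DMSO by their brightest probe set, namely JUN, JUNB, FOSL1, FOSL2 and IER2. The calls of JUNB and IER2 held in only 3 and 4 of the 9 fits that left out 1 array. JUND, the JUN protein usually present in resting cells, rose. EGR1 and DUSP1 did not pass the test. Among probe sets, 9 fell and 1 rose of 18, against a background in which 14.2% of all tested probe sets fell and 5.57% rose. By brightest probe set, 16.4% of the 12678 tested genes fell and 7.62% rose. The members were chosen with earlier results of these data known, so these shares describe them and do not test them. At 6 h 0 of 18 passed, against 0.165% of all tested probe sets that rose and 0.0293% that fell. By gene these shares were 0.252% and 0.0552%. The median difference from DMSO over the 18 was -0.092 at 6 h, against 0.0012 over all 27307 probe sets. At 72 h the median was -0.34, against -0.074 over all. With bulk RNA, fewer cells of a type and less RNA per cell cannot be told apart.

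**Figure D1:**
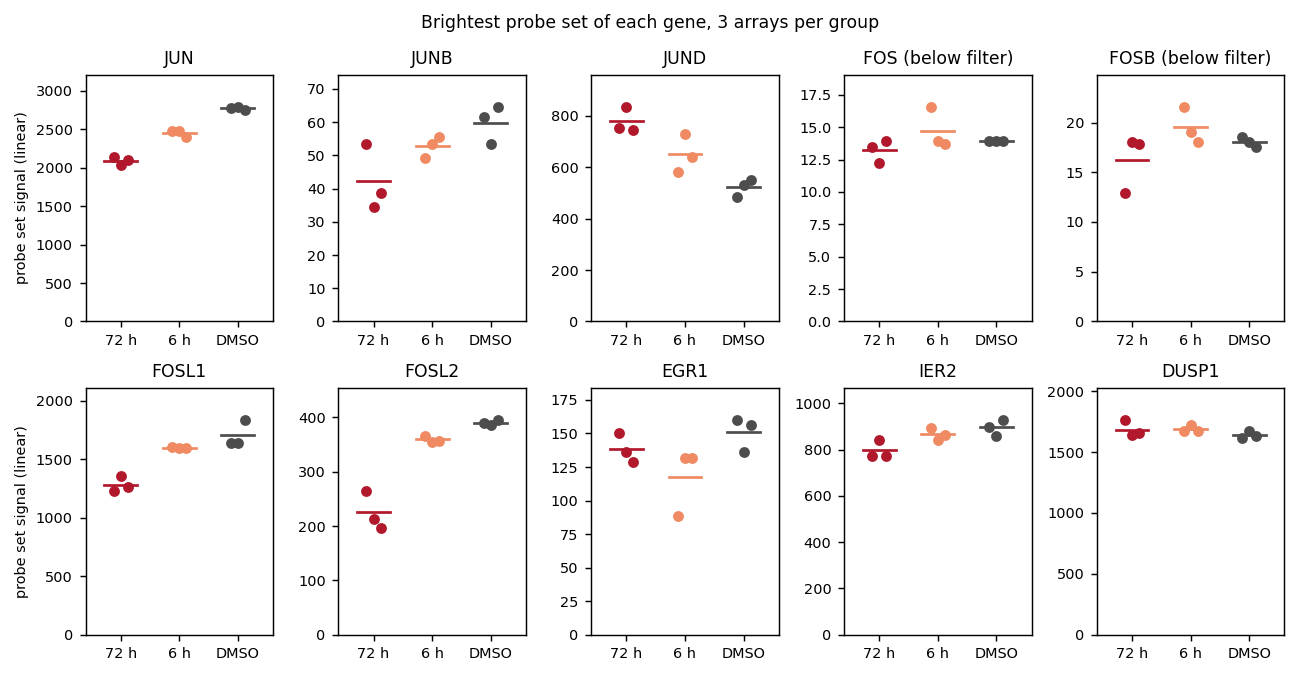
Deposited linear signal of each member gene's brightest probe set on every array. Panels are genes, points are arrays (72 h, 6 h, DMSO), and bars are group means. JUND is higher on all 72 h arrays than on any DMSO array, while JUN, FOSL1, FOSL2 and IER2 are lower. FOS lies below the filter signal of 17.8 on every array, at 12.3 to 16.6, and FOSB lies around it, at 12.9 to 21.6.

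JUN, the founding member of the family, has 4 probe sets. The signal of the brightest, 201464_x_at, was 2137, 2033 and 2102 at 72 h, 2483, 2483 and 2398 at 6 h, and 2776, 2794 and 2755 in DMSO. The 3 groups did not overlap, and the 6 h arrays lay between the others. At 72 h the signal was 0.753 times that of DMSO (95% interval 0.714 to 0.795), a log2 difference of -0.41 ± 0.036 (SE, n = 3 each, limma adjusted p = 4.15e-06). At 6 h the log2 difference was -0.18 ± 0.036, with an unadjusted p of 0.000255 by limma and an adjusted p of 0.0966, which did not pass.

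A second JUN probe set, 201466_s_at, gave 404, 399.6 and 357.5 at 72 h, 403.2, 465.2 and 465.2 at 6 h, and 549, 544.8 and 538.3 in DMSO. The 72 h arrays overlapped those of 6 h, and both lay below DMSO. Its log2 difference was -0.49 ± 0.071 at 72 h (limma adjusted p = 0.000268) and -0.29 ± 0.071 at 6 h (limma adjusted p = 0.252). The third, 201465_s_at, gave 367.7, 246.6 and 315.8 at 72 h, 339.6, 409.2 and 367.7 at 6 h, and 393.3, 392.1 and 392.3 in DMSO. It passed at 72 h with -0.36 ± 0.11 (limma adjusted p = 0.0405), and that call was lost without DMSO replicate 1, 2 or 3, 6 h replicate 3, or 72 h replicate 2 or 3, with differences of -0.38 to -0.20 and adjusted p up to 0.152. The dimmest, 213281_at, ranged from 29.2 to 38.9 at 72 h, 37.5 to 38.9 at 6 h and 38.9 to 52.5 in DMSO, and had -0.32 at 72 h (limma adjusted p = 0.181). All 4 JUN probe sets thus had a negative difference at 72 h and 3 of them passed.

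JUNB, which can oppose JUN at some promoters, has 1 probe set, 201473_at. It gave 53.5, 34.6 and 38.7 at 72 h, 49.3, 53.4 and 55.6 at 6 h, and 61.4, 53.4 and 64.6 in DMSO. The highest 72 h array lay within the DMSO range. The log2 difference at 72 h was -0.52 ± 0.16 (limma adjusted p = 0.0360). It no longer passed without DMSO replicate 1 or 3, 6 h replicate 2 or 3, or 72 h replicate 2 or 3, with differences of -0.52 to -0.39 and adjusted p up to 0.145. At 6 h it was -0.18 ± 0.16.

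JUND, the third JUN protein, gave 752.4, 834.9 and 745.3 at 72 h, 580.2, 729.9 and 637.7 at 6 h, and 482.1, 531 and 551.8 in DMSO by probe set 203752_s_at. Both exposed groups lay wholly above DMSO, and the 72 h arrays wholly above those of 6 h. The 72 h signal was 1.49 times that of DMSO (95% interval 1.32 to 1.68), a log2 difference of 0.58 ± 0.081 (limma adjusted p = 0.000226). At 6 h the log2 difference was 0.31 ± 0.081, with an unadjusted limma p of 0.00187 and an adjusted p of 0.375. JUND's rise rests on this probe set, as the other 3 were below the filter, with group means of 10.8 to 19.3 and overlapping groups. Of all tested probe sets, 99.0% had a smaller difference than it at 72 h.

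Among the FOS proteins, the 2 best known for rapid induction were dim. FOS, by 209189_at, gave 13.5, 12.3 and 13.9 at 72 h, 16.6, 13.9 and 13.7 at 6 h, and 13.9 on each DMSO array. FOSB, by 202768_at, gave 12.9, 18.1 and 17.8 at 72 h, 21.6, 19.1 and 18 at 6 h, and 18.6, 18 and 17.5 in DMSO. The exposed arrays of both times overlapped DMSO for both genes. Their mean log2 signal over the 9 arrays was below the filter, so they had no test.

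FOSL1, the FOS relative also named FRA-1 and known from invasive carcinoma cells, was bright. Its probe set 204420_at gave 1229, 1353 and 1259 at 72 h, 1600.2, 1594 and 1594 at 6 h, and 1635, 1640.1 and 1835 in DMSO. The 3 groups did not overlap, though the 6 h arrays lay just below the lowest DMSO array. The 72 h signal was 0.752 times that of DMSO (95% interval 0.696 to 0.813), a log2 difference of -0.41 ± 0.052 (limma adjusted p = 9.41e-05). At 6 h it was -0.092 ± 0.052, with a ratio of 0.938 and a 95% interval of 0.868 to 1.01.

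FOSL2, or FRA-2, had the largest fall of the members by brightest probe set. Its brightest probe set, 225262_at, gave 265.2, 213.8 and 197.1 at 72 h, 366.1, 355.5 and 357.1 at 6 h, and 388.9, 385.9 and 395 in DMSO. The 72 h arrays lay far below the others, and the 6 h arrays just below DMSO. The 72 h signal was 0.573 times that of DMSO (95% interval 0.5005 to 0.657), a log2 difference of -0.80 ± 0.091 (limma adjusted p = 3.72e-05), and 1.20% of all tested probe sets had a lower one. At 6 h it was -0.12 ± 0.091.

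Another pair of FOSL2 probe sets also fell. For 228188_at the signal was 94.4, 79.8 and 86.1 at 72 h, 118.7, 117.4 and 130.9 at 6 h, and 138.2, 147.9 and 153.8 in DMSO, with a 72 h log2 difference of -0.76 ± 0.10 (limma adjusted p = 0.000175). For 218880_at it was 51.5, 43.6 and 32.4 at 72 h, 66.8, 67.3 and 67.7 at 6 h, and 64.5, 78.1 and 72.3 in DMSO, with -0.77 ± 0.16 (limma adjusted p = 0.00367). The remaining probe sets, 218881_s_at and 205409_at, had means below 30 in each group, overlapping groups, and differences of -0.20 and -0.19 that did not pass. FOSL2 thus fell by 3 of its 5 probe sets, the brightest ones.

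**Figure D2:**
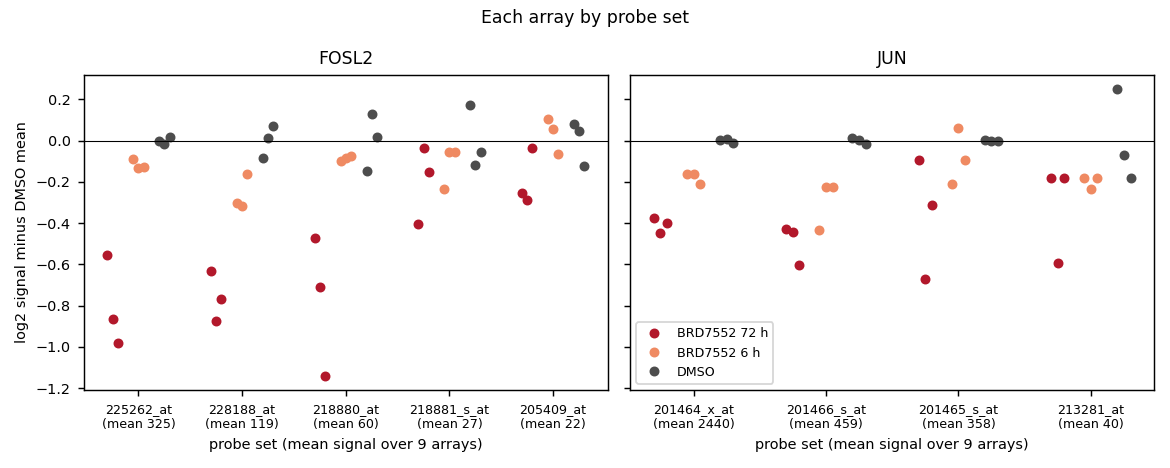
Log2 signal of each array minus the DMSO mean for the probe sets of FOSL2 (left) and JUN (right), with the probe set's mean signal under its name. The 3 brightest FOSL2 probe sets have every 72 h array below all 6 h and DMSO arrays, whereas the groups overlap for the 2 dimmest. For JUN only the brightest separates all 3 groups.

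EGR1 had its lowest array at 6 h. Probe set 201694_s_at gave 150.2, 136.5 and 128.4 at 72 h, 88.6, 131.6 and 131.6 at 6 h, and 160, 136.5 and 156.6 in DMSO. The 6 h arrays lay below DMSO, 1 of them far below, while the 72 h arrays overlapped both groups. At 6 h the log2 difference was -0.39 ± 0.14, with an unadjusted p of 0.0172 by limma, and did not pass after adjustment. At 72 h it was -0.13 ± 0.14 (limma adjusted p = 0.601). Without 6 h replicate 1 the 6 h difference was -0.20. The ratio at 72 h had a 95% interval of 0.741 to 1.13. A dim probe set, 227404_s_at, had differences of -0.14 at 72 h and -0.092 at 6 h that did not pass, and 201693_s_at was below the filter.

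IER2, by 202081_at, gave 773.8, 841.2 and 772.5 at 72 h, 893.5, 840.6 and 863.5 at 6 h, and 899, 860.5 and 927.3 in DMSO. The 72 h arrays lay below DMSO and overlapped those of 6 h. The log2 difference at 72 h was -0.17 ± 0.053 (limma adjusted p = 0.0359), where the median of all tested probe sets was -0.074 and 32.7% of them had a lower one. The call was lost without DMSO replicate 1 or 3, 6 h replicate 3, or 72 h replicate 1 or 3, with adjusted p up to 0.155, and when arrays were centred on their medians or scaled by quantile or cyclic loess.

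DUSP1, the phosphatase, did not pass by any of its 3 probe sets. For 201041_s_at the signal was 1762, 1637 and 1655 at 72 h, 1670.2, 1722 and 1670.2 at 6 h, and 1612, 1670.2 and 1629 in DMSO. The groups overlapped, and the ratio to DMSO was 1.03 at 72 h (95% interval 0.966 to 1.09) and 1.03 at 6 h (0.969 to 1.10). The dimmer 201044_x_at gave 27.5, 19.2 and 34.3 at 72 h, 36.9, 38.2 and 34.3 at 6 h, and 34.3, 35.5 and 41.5 in DMSO. Its log2 difference of -0.49 ± 0.19 at 72 h did not pass (limma adjusted p = 0.0785), and passed without 72 h replicate 3, at -0.69 (adjusted p = 0.0188). Without 72 h replicate 2 it was -0.27, and over all arrays left out in turn the adjusted p reached 0.260. The dimmest, 226578_s_at, had -0.15 at 72 h and 0.039 at 6 h.

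**Figure D3:**
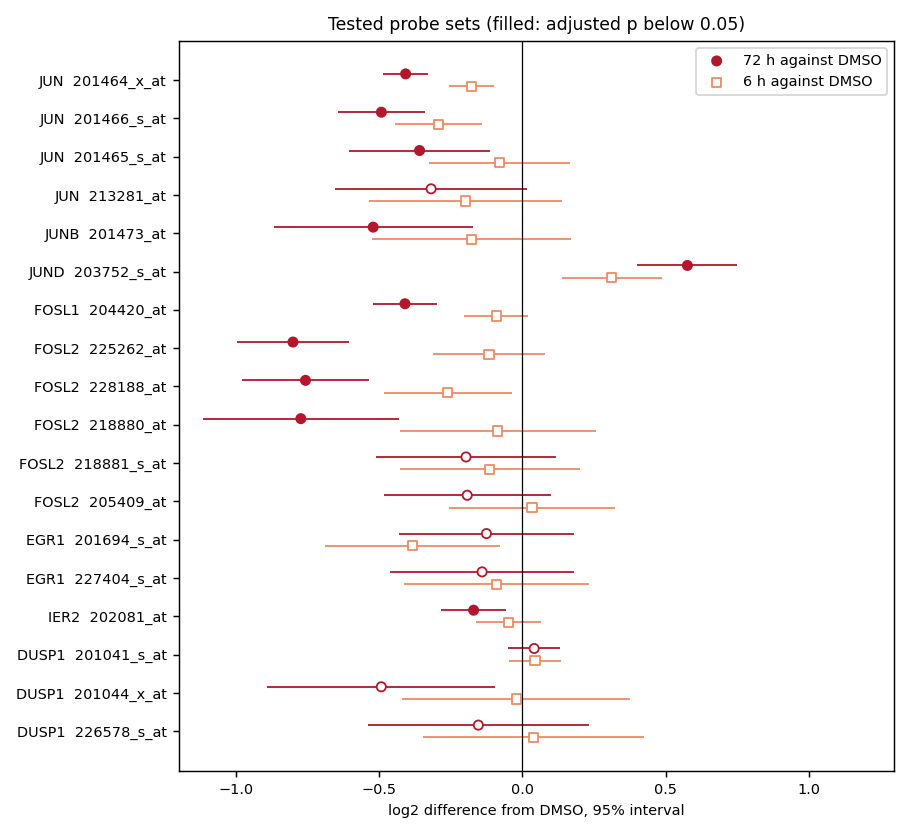
Log2 difference from DMSO with its 95% interval for the 18 tested probe sets, at 72 h (circles) and 6 h (squares); filled symbols passed at an adjusted p below 0.05. All filled symbols are at 72 h, 9 left of 0 and JUND right of it.

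At 6 h, 0 of 18 member probe sets passed, and 5 had an unadjusted limma p below 0.05: JUN 201464_x_at and 201466_s_at, JUND, FOSL2 228188_at and EGR1 201694_s_at. No exposed array was earlier than 6 h, so a rise within minutes that had passed by then could not be seen. In all, 53 of 27307 probe sets passed at 6 h and 934 had an unadjusted p below 0.05. The groups did not overlap for 7 of 18, against 10.9% of all probe sets, and JUND was the only one of these above DMSO. At 72 h 9 of 18 did not overlap, against 32.1%. With array weights, JUN 201464_x_at (adjusted p = 0.00432), JUN 201466_s_at (-0.26, 0.0252) and JUND (0.36, 0.0160) passed at 6 h. That fit gave 191 calls over all probe sets, against 53 as reported. The 3 probe sets passed at 6 h in 2 of 21, 1 of 20 and 1 of 21 alternative settings.

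The 72 h arrays were also set directly against those of 6 h, without DMSO in the difference. Longer exposure and longer time in culture cannot be told apart in it. Of the 18, 5 fell, namely JUN 201464_x_at, FOSL1 and 3 probe sets of FOSL2, and JUND rose. Over all tested probe sets 13% fell and 4.49% rose, and by brightest probe set 14.7% and 6.41% of genes. FOSL2 225262_at had the largest of these differences among brightest probe sets, -0.69 ± 0.091 (limma adjusted p = 0.000205), followed by FOSL1 with -0.32 ± 0.052 (limma adjusted p = 0.000944) and JUN with -0.23 ± 0.036 (limma adjusted p = 0.000680). JUND had 0.26 ± 0.081 (limma adjusted p = 0.0377), a call lost without DMSO replicate 2, 6 h replicate 1 or 3, or 72 h replicate 2 or 3, with differences of 0.19 to 0.29. JUNB and IER2 had -0.34 and -0.12 and did not pass. Without 72 h replicate 1, JUNB (-0.53, limma adjusted p = 0.0108), JUN 201465_s_at (-0.41) and JUN 201466_s_at passed, the last also without 6 h replicate 1 (-0.27 to -0.14 over all arrays left out), and without 72 h replicate 3 DUSP1 201044_x_at did (-0.66). The arrays did not overlap for 6 of 18, against 29% of all.

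The other genes of the pathway were read from 5 lists, each gene by its brightest probe set. The lists were chosen with earlier results of these data known. Their shares and medians beside those of all genes are therefore descriptions and no test of the lists. Of the AP-1 dimer partners, 11 of 12 on the array were tested. At 72 h 5 rose and 2 fell, where 7.62% of all tested genes rose and 16.4% fell. The median was 0.070, against -0.062 over all genes. ATF4, the factor of the amino acid and stress response, averaged 2670.4 ± 219 at 72 h, 2395 ± 84.8 at 6 h and 1765 ± 12.2 in DMSO (SD, n = 3 each). It rose at both times, by 0.59 ± 0.052 at 72 h (limma adjusted p = 3.39e-06) and 0.44 ± 0.052 at 6 h (limma adjusted p = 0.00105), the only partner to pass at 6 h. The 6 h call was lost when the fit had no intensity trend (adjusted p = 0.158). BATF3, known from dendritic cells, fell by 0.62 at 72 h, averaging 37.1 ± 3.59 at 72 h, 57 ± 1.08 at 6 h and 57 ± 3.84 in DMSO. ATF3, a stress-induced repressor, rose by 0.52 (limma adjusted p = 0.0486), and JDP2, a repressor that pairs with JUN, rose by 0.40. The ATF3 call held only without DMSO replicate 2 or 72 h replicate 3 and was lost in the other fits, with differences of 0.34 to 0.54. The JDP2 call was lost without DMSO replicate 1 or 3, with 0.33 and 0.43. The 7 calls became 3 without DMSO replicate 1 or 3 and 4 without 72 h replicate 2. They also became 4 with the mean of a gene's probe sets, with no intensity trend, or with the filter at the 75th percentile.

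Among other immediate early genes, 12 of 21 tested fell at 72 h and 1 rose, where 16.4% of all genes fell and 7.62% rose. The median was -0.31, against -0.062 over all genes. HES1, a basic helix-loop-helix repressor, fell by 1.25 ± 0.084 (limma adjusted p = 3.02e-07), averaging 238 ± 32.6 at 72 h, 417 ± 0.123 at 6 h and 563 ± 24.5 in DMSO. The kinase gene SIK1, the zinc finger factor KLF2 and the NF-kB cofactor NFKBIZ also fell, with differences of -0.79, -0.68 and -0.67. SOCS3, an inhibitor of cytokine signalling, was the 1 that rose, by 0.25. At 6 h 0 of 21 passed by limma, with 7 at an unadjusted p below 0.05. Over all 27307 tested probe sets, 53 passed at 6 h and 934 had an unadjusted limma p below 0.05. NFKBIZ lost its call without DMSO replicate 2 or 72 h replicate 3, with adjusted p up to 0.0585. The 13 calls at 72 h became 8 without DMSO replicate 2 and 8 without 72 h replicates 2 and 3 together, and at 6 h 1 gene passed without 72 h replicate 1.

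Of the kinases and factors that feed these genes, 5 of 19 tested fell at 72 h and 3 rose, where 16.4% of all genes fell and 7.62% rose. The median of -0.081 was close to the -0.062 of all genes. The stress kinase genes MAPK8 and MAPK9, which encode the JUN N-terminal kinases, fell, with differences of -0.45 ± 0.059 and -0.44 ± 0.063 (limma adjusted p = 0.000124 and 0.000263). RPS6KA4 and RPS6KA1, kinases activated by MAP kinases, fell with differences of -0.42 and -0.38. The RPS6KA1 call was lost without any 1 of the arrays other than 72 h replicate 1, with differences of -0.41 to -0.23. At 6 h 0 of 19 passed by limma, with 2 at an unadjusted p below 0.05. Over all 27307 tested probe sets, 53 passed at 6 h and 934 had an unadjusted limma p below 0.05. The 8 calls became 5 without DMSO replicate 1, 4 without DMSO replicate 3 and 5 without 72 h replicates 2 and 3 together.

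Known targets of AP-1 and EGR1 had the lowest median of the 5 lists at 72 h. Of 21 tested, 14 fell and 0 rose, where 16.4% of all genes fell and 7.62% rose, and the median was -0.43 against -0.062. An unadjusted limma p below 0.05 was found for 18 of 21, against 8678 of all 27307 tested probe sets. Among the 18 was the collagenase MMP1, which was above DMSO (0.71 ± 0.27, adjusted p = 0.0801) and did not pass. The cytokine IL11 fell by 1.60 ± 0.13 (limma adjusted p = 1.84e-06), averaging 38.3 ± 5.65 at 72 h, 85.5 ± 5.77 at 6 h and 115 ± 6.89 in DMSO. The chemokine CXCL8, the urokinase receptor PLAUR and the EGF receptor ligand HBEGF fell with differences of -1.37, -1.26 and -0.81. Without 72 h replicates 2 and 3 together 9 of the list passed. At 6 h 0.252% of all genes rose and 0.0552% fell. Of the list only the chemokine CCL2 passed then, with -0.23 ± 0.040 (limma adjusted p = 0.0314). It no longer passed without DMSO replicate 1, 2 or 3, 6 h replicate 2 or 3, or 72 h replicate 2 or 3, with differences of -0.25 to -0.20 and adjusted p up to 0.254. The CCL2 call was also lost with no filter (limma adjusted p = 0.0636), with only the 2 groups fitted (0.0718), with no trend (0.830) and with centred arrays.

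DUSP1's relatives, the other dual specificity phosphatases, were tested by 11 of 12 genes. At 72 h 4 fell and 0 rose, where 16.4% of all genes fell and 7.62% rose. An unadjusted limma p below 0.05 was found for 5 of 11, against 8678 of all 27307 tested probe sets. The median was -0.13, against -0.062 over all genes. DUSP7 fell by 1.09 ± 0.11 (limma adjusted p = 1.32e-05), averaging 133 ± 22.3 at 72 h, 235 ± 9.52 at 6 h and 279.7 ± 20.3 in DMSO. DUSP2, DUSP5 and DUSP3 fell with differences of -0.79, -0.57 and -0.46, and the DUSP3 call was lost without DMSO replicate 3 (adjusted p = 0.0593). DUSP7 and DUSP5 act on ERK, as does DUSP2. At 6 h 0 of 11 passed by limma, with 2 at an unadjusted p below 0.05. Over all 27307 tested probe sets, 53 passed at 6 h and 934 had an unadjusted limma p below 0.05.

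Set against 6 h, the 72 h arrays gave 2 rises (ATF7 0.40 and ATF2 0.37) and 2 falls (BATF3 -0.62 and MAFF -0.32) among the dimer partners, where 6.41% of all genes rose and 14.7% fell. With the mean of its probe sets ATF2 was -0.035 and did not pass (adjusted p = 0.797). Other immediate early genes gave 11 falls and 1 rise, led by HES1 with -0.82, NFKBIZ with -0.61, KLF2 with -0.58 and SIK1 with -0.52. The inputs gave 5 falls and 1 rise, led by RPS6KA4, RPS6KA1, MAPK9 and MAPK8 at -0.41 to -0.38, and the targets 13 falls, led by IL11 with -1.16, PLAUR with -0.93, CXCL8 with -0.89 and TIMP1 with -0.67. Of the phosphatases 3 fell: DUSP7 (-0.84), DUSP5 (-0.50) and DUSP3 (-0.48). Leaving out 1 array ended the call of ATF7 (6 h replicate 1 or 2, 72 h replicate 2; 0.38 to 0.39), MAFF (6 h replicate 2 or 3, 72 h replicate 3; -0.29 to -0.25) and NFKBIZ (6 h replicate 2 or 3, 72 h replicate 2 or 3; -0.63 to -0.47). RPS6KA1 kept its call only without DMSO replicate 2 or 72 h replicate 1, and the fits that lost it gave -0.45 to -0.25. Dimer partner calls became 2 without 6 h replicate 2, other immediate early calls 7 without 6 h replicate 2 and 6 without 72 h replicate 3 or without 72 h replicates 2 and 3 together, and phosphatase calls 5 without 72 h replicate 1.

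**Figure D4:**
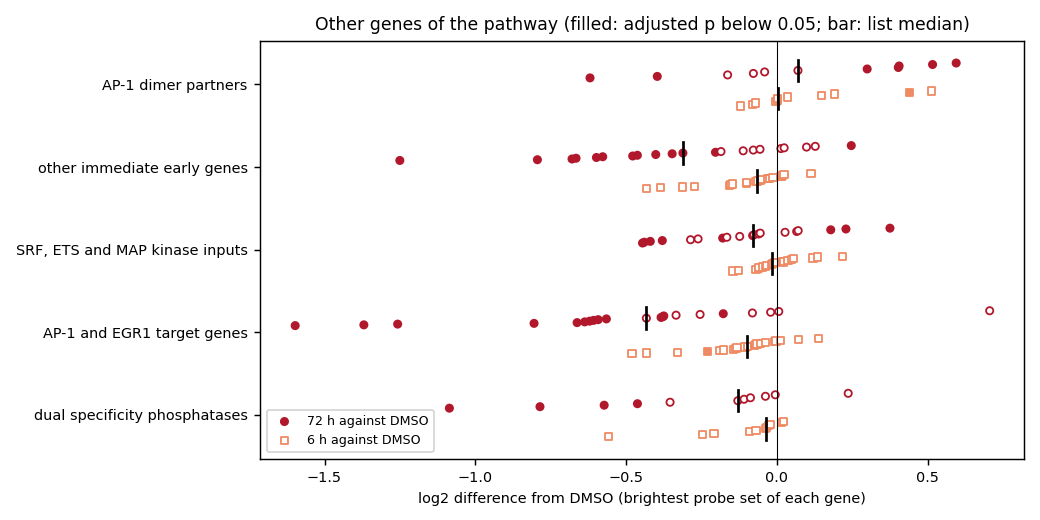
Log2 difference from DMSO of each tested gene in the 5 lists, at 72 h (circles) and 6 h (squares); filled symbols passed at an adjusted p below 0.05 and bars are list medians. The targets and other immediate early genes spread furthest to the left at 72 h, while 5 of the dimer partners are filled right of 0.

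By Pearson correlation of log2 signal over the 9 arrays among 12678 genes, the genes closest to JUN were MARCHF4 (0.989), STAMBPL1 (0.987) and TNFRSF12A (0.986). Those closest to FOSL1 were CSNK2B (0.991), VDAC1 (0.986) and CDK2 (0.985), and those closest to EGR1 were SRD5A1 (0.937), BPNT1 (0.932) and GOPC (0.921). These values describe the same 9 arrays and include the differences between the groups.

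Arrays of the 72 h group resembled each other less closely. Their mean rank correlation with arrays of their own group was 0.958 to 0.971, against 0.985 to 0.987 at 6 h and 0.989 to 0.990 in DMSO. The upper quartile of signal was 97.2 to 117 at 72 h, 112 to 119 at 6 h and 113 to 117 in DMSO, with replicates 2 and 3 of the 72 h group below the rest. Leaving out both leaves 1 array in the 72 h group, which is then assumed to vary as the 6 h and DMSO arrays do. In that fit, JUN 201465_s_at (-0.094), JUNB (-0.16) and IER2 (-0.21) no longer passed at 72 h, while the other 7 probe sets kept an adjusted p below 0.05. Between the times, JUND, FOSL2 228188_at (-0.37) and FOSL2 218880_at (-0.38) no longer passed without them. Of the list genes named, ATF3, KLF2, NFKBIZ, RPS6KA1 and DUSP3 no longer passed at 72 h without them, and ATF2, MAFF, KLF2, NFKBIZ, RPS6KA1 and DUSP3 no longer passed between the times. CCL2 no longer passed at 6 h. The ACTB 3′ to 5′ ratio, a measure of RNA quality, was 2.07 to 2.21 at 72 h, 1.74 to 2.05 at 6 h and 1.91 to 2.01 in DMSO. The same ratio for GAPDH was 1.337 to 1.387 at 72 h, 1.267 to 1.314 at 6 h and 1.307 to 1.348 in DMSO. By GAPDH the 72 h and DMSO ranges overlapped. All 6 duct markers passed the filter. Their summed signals were 25831 to 27666 at 72 h, 32836 to 32863 at 6 h and 32589 to 33326 in DMSO. These sums come mostly from the bright KRT18, KRT8 and KRT19, so they do not show a common fall of the markers. Mean KRT8 was 6198.95 at 72 h and 8606.35 in DMSO, and mean KRT19 was 6201.31 and 6789.53. Mean CDH1 was nearly unchanged, at 50.7 and 52.4. Of the leukocyte and endocrine markers on the array, 0 of 3 and 0 of 4 passed the filter, and 1 each of the endothelial, fibroblast and acinar lists did. The part of the RNA quality ratios and of the duct marker level in the 72 h results was not tested.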

How the data were processed

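RNA of 9 PANC-1 samples was labelled with biotin and hybridised, 1 array each. The deposited values are linear intensity per probe set (4.54 to 25052). MAS5 is the tool named per the submitters' processing notes, without version or scaling. For 59.2% of probe sets at least 2 arrays held exactly the same value, which is unusual for MAS5. The method behind the values is therefore uncertain, and ties can make spreads within a group too small. Values were log2 transformed without further normalization. Of 54613 probe sets that are not controls, 27307 passed the filter at the median probe set. Linear models with an intensity trend (lmFit, eBayes) came from limma 3.58.1 (R 4.3.3) over the 9 arrays together, leaving 6 residual degrees of freedom, and p-values were adjusted by Benjamini-Hochberg over all tested probe sets. In GEO's platform annotation 41097 probe sets carry 1 symbol, 11777 carry none and 1801 carry several, which were not used for names. A gene was represented by its brightest probe set.

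The members and lists were chosen with earlier results of these data known. Every member was named, up to 4 called genes of each list per comparison with the largest change, and the 3 genes most correlated with JUN, FOSL1 and EGR1. SOCS3, the 1 rise of its list, and MMP1 were named after their values were seen. List genes without a probe set of their own were not analysed here. The fit was run on simulated data with the same spread for all probe sets of a group. These data had no ties and no intensity trend, so they do not test the fit under those features. Alternatives covered the filter, scaling, offset, probe set summary, trend, weights, groups fitted, replicate block and leaving out each array; leaving out both 72 h arrays of low upper quartile was chosen after seeing the data.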

Additional observations from a re-analysis of the deposited data

Results flagged for a closer look

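The 72 h arrays differed from the 6 h arrays, by the direct limma comparison of the 2 groups, for 6 member probe sets. Exposure and time in culture cannot be told apart in this difference. The log2 differences of 72 h minus 6 h were -0.23 for JUN 201464_x_at, 0.26 for JUND 203752_s_at, -0.32 for FOSL1 204420_at, and -0.69, -0.50 and -0.69 for FOSL2 225262_at, 228188_at and 218880_at. The comparisons of each time with DMSO share the DMSO arrays. The JUND value was called in 4 of 9 fits that left out 1 array, and the other 5 in all 9.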

How the results depend on the processing

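Leaving out both 72 h arrays of low upper quartile leaves that group 1 array, whose spread is taken from the other groups. At 72 h, JUN 201464_x_at and 201466_s_at, JUND, FOSL1 and 3 probe sets of FOSL2 passed under every alternative in which they had a value. No member difference turned round in sign while called. With 1 probe set per gene, 1 member passed at 6 h (JUN, adjusted p = 0.0441) and 6 at 72 h, and 3378 probe sets in all at 72 h and 3037 between the times. With the mean of a gene's probe sets, 6 members passed at 72 h and 3 between the times, and 3012 and 2646 genes in all. Centring arrays on their medians gave 25 calls in all at 6 h, 3272 at 72 h and 2754 between the times, and JUN 201464_x_at no longer passed between the times (adjusted p = 0.0692). Quantile and cyclic loess scaling gave 83 each at 6 h, the fit without a trend 12, and array weights 191, with 3 members. Without both 72 h arrays of low upper quartile, 3 members passed between the times, and 3361 and 2482 probe sets passed in all at 72 h and between the times. Leaving out each array gave 0 to 0, 7 to 10 and 5 to 9 member calls at 6 h, at 72 h and between the times, and 32 to 66, 3275 to 7686 and 3088 to 7370 in all. Of all calls at 72 h 71.9% were falls, against 55.5% with quantile and 54.3% with cyclic loess scaling, and between the times 74.3%, against 55.6% and 55.0%. Without both 72 h arrays of low upper quartile the falls were 45.2% and 50.2%. JUN 201465_s_at, JUNB and IER2 also lost their 72 h calls with no filter, with no trend and with only the 2 groups fitted. JUND lost its call between the times in these fits, with centred arrays and with array weights. EGR1 passed between the times with quantile scaling (0.39, adjusted p = 0.0461). ATF2 between the times was -0.035 with the mean of its probe sets, where the brightest gave 0.37, and the cause was not tested. The labels do not say whether equal replicate numbers mark paired samples. Correlations of deviations from the group means were -0.258 to 0.201 for equal numbers and -0.295 to 0.337 for unequal ones. With 3 arrays per group the deviations depend on each other, so these ranges cannot decide it. With the replicate number as a block, 0, 8 and 6 members passed and 46, 4774 and 4199 probe sets in all. Signal over background limits FOS and FOSB.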
